A study of Homo sapiens with 18 samples.

Results

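The genes described here are 10 members of the insulin-like growth factor (IGF) axis in WM989, an established human melanoma cell line: the receptors IGF1R, INSR and IGF2R, the adaptors IRS1 and IRS2, and the binding proteins IGFBP2, IGFBP3, IGFBP4, IGFBP5 and IGFBP7. They were chosen by symbol, with earlier results of these data known. All 10 were matched to an Ensembl gene among the 63677 in the count table, and 9 of them had enough reads to be tested. IGFBP4 did not. Cells had been kept for 7 days in EPZ5676 (4 µM), which blocks the histone methyltransferase DOT1L, or in its solvent DMSO. For each treatment there were 3 libraries from a sort of NGFR- and EGFR-high cells (high cells), 3 from the matching low sort (low cells) and 3 from unsorted cultures (bulk cells), which made 18 polyA RNA libraries. The groups were thus EPZ5676 high, DMSO high, EPZ5676 low, DMSO low, EPZ5676 bulk and DMSO bulk, all from 1 cell line. Nothing in the labels says that replicates came from separate cultures, so p-values measure only the spread between these libraries, which may be technical.

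IGF1 and IGF2 signal through the receptor tyrosine kinase IGF1R, and insulin through its close relative INSR. Both receptors phosphorylate the docking proteins IRS1 and IRS2, which recruit phosphoinositide 3-kinase and so activate AKT. IGF2R has no kinase; it is the cation-independent mannose 6-phosphate receptor, which carries IGF2 and newly made hydrolases to lysosomes. IGFBP2 to IGFBP5 are secreted proteins that bind IGFs tightly and hold them away from, or near to, their receptors, whereas IGFBP7 binds IGFs weakly. In melanoma, IGF1R signalling is known as a survival route for cells under BRAF inhibition.

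Libraries held 13383741 to 26311674 gene counts. Levels are TMM-scaled CPM, the share of a library's reads that a gene took. Changes are log2 fold changes with their standard error (SE). Each adjusted p is from edgeR (quasi-likelihood), corrected by Benjamini-Hochberg over 18121 tested genes, and a gene counts as called below 0.05. RNA of NGFR, one of the sorted proteins, reached 767, 768 and 645 CPM in EPZ5676 high libraries and 563, 537 and 617 CPM in DMSO high libraries. It stood at 3.64, 6.86 and 1.05 CPM in EPZ5676 low libraries and 0.639, 1.61 and 0.764 CPM in DMSO low libraries. RNA of EGFR, the other sorted protein, had 62.4, 56.0 and 69.2 CPM in EPZ5676 high and 85.6, 73.4 and 68.7 CPM in DMSO high libraries. In low cells EGFR had 4.27, 4.68 and 4.81 CPM with EPZ5676 and 2.26, 2.66 and 3.46 CPM with DMSO. Melanocyte markers, which check the label as melanoma cells, summed over 8 genes to 14130 to 14310 CPM in EPZ5676 low and 11340 to 11810 CPM in DMSO low libraries. In high cells that sum was 1851 to 2024 CPM under EPZ5676 and 1235 to 1448 CPM under DMSO. Leukocyte markers summed to at most 2.94 CPM in any library, with 1 of 7 genes at 0 throughout. Keratinocyte markers summed to at most 43.3 CPM and endothelial markers to at most 39.5 CPM, each with 1 of 6 genes at 0. Fibroblast markers, 9 genes, summed to 655 to 806 CPM in EPZ5676 high, 1181 to 1510 CPM in DMSO high, 100.1 to 102 CPM in EPZ5676 low and 73.7 to 77.4 CPM in DMSO low libraries.

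One library stood apart. DMSO bulk replicate 1 had 220.3 CPM of NGFR, against 12.6 and 9.24 CPM in the other DMSO bulk libraries and 35.7, 29.9 and 30.3 CPM in EPZ5676 bulk libraries. Its melanocyte marker sum, 5006 CPM, was the lowest and its fibroblast marker sum, 465 CPM, the highest of the DMSO bulk libraries. All groups share one estimate of the spread, so this library also widens the errors of comparisons that do not contain it. Calls on EPZ5676 below are therefore given with and without it. Reads outside annotated features made up 18.9% to 28.7% in 6 libraries, 5 with EPZ5676 and 1 with DMSO, and 12.8% to 15.2% in the other 12. In sorted and bulk libraries alike, fewer cells of a type and less RNA per cell cannot be told apart.

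The first comparison asks how the IGF axis differs between cells sorted high and low for NGFR and EGFR. IGFBP2, IGFBP3, IGFBP5, IGFBP7 and IRS1 were 1.49- to 96.2-fold more abundant in high cells under EPZ5676 and 2.00- to 309-fold under DMSO. IGF1R and INSR were slightly more abundant, and IRS2 and IGF2R less abundant. All 9 tested members differed, 7 higher and 2 lower, under both EPZ5676 and DMSO. Over all tested genes, 25.8% were higher and 23.1% lower in high cells under EPZ5676, and 29.6% higher and 26.7% lower under DMSO. High and low libraries did not overlap for any of the 9 members, nor for 60.3% of all tested genes under each treatment. The members gave the same counts without DMSO bulk replicate 1, against 26.8% higher and 23.7% lower of all genes under EPZ5676 and 30.3% and 27.1% under DMSO. The median log2 fold change of the 9 members was 0.58 under EPZ5676 and 1.00 under DMSO, against 0.02 and 0.03 over all tested genes. Fibroblast markers, as summed above, stood higher in the same high libraries and melanocyte markers lower. Among 8 tested fibroblast markers, 7 were called higher and 1, LUM, lower in high cells under each treatment. LUM had 49.3, 46.4 and 62.4 CPM in EPZ5676 high and 88.8, 88.3 and 90.4 CPM in EPZ5676 low libraries. Under DMSO it had 36.0, 33.2 and 26.0 CPM in high and 71.0, 66.0 and 66.4 CPM in low libraries. It made up most of the sum in low cells. The part of either marker list in these differences was not tested. Without the 6 libraries with many reads outside features, which leaves 1 EPZ5676 high library, 4 members were called higher under EPZ5676, against 11.9% of all genes tested there.

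**Figure D1:**
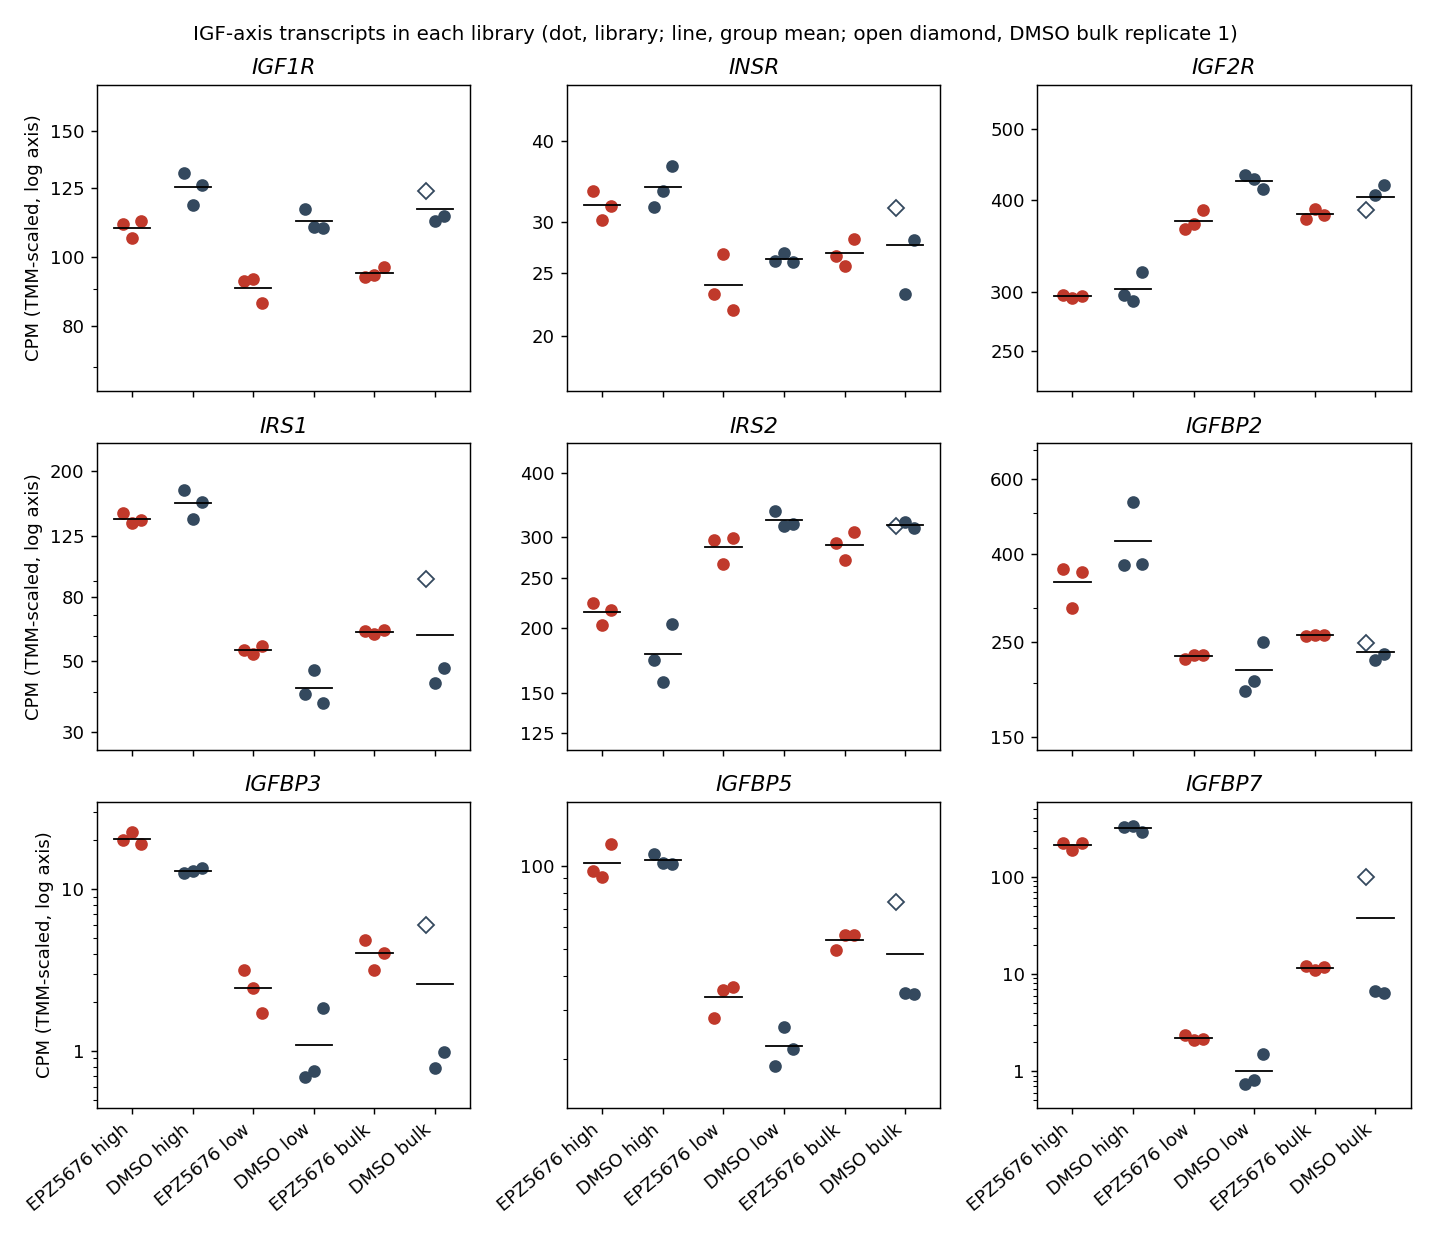
Level of the 9 tested genes in each of the 18 libraries, as TMM-scaled CPM on log axes that differ between panels. Red dots are EPZ5676 and dark dots DMSO libraries, lines are group means, and the open diamond is DMSO bulk replicate 1. For IGFBP7 the high libraries sit between 187 and 337 CPM and the low libraries between 0.737 and 2.38 CPM.

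IGFBP7 (ENSG00000163453), a secreted matrix-associated protein with low affinity for IGFs, set the sorts apart most. It stood at 223, 187 and 223 CPM in EPZ5676 high libraries, against 2.38, 2.09 and 2.14 CPM in EPZ5676 low libraries (log2 fold change 6.59 ± 1.00, adjusted p = 0.000127). Under DMSO it stood at 326, 337 and 288 CPM in high libraries, against 0.737, 0.804 and 1.48 CPM in low libraries (8.27 ± 1.10, adjusted p = 2.96e-05). Every high library lay far above every low library, and the size of the DMSO difference exceeded that of 99.8% of tested genes. IGFBP7 shares up to 270 exon bases on the other strand with POLR2B and IGFBP7-AS1 in GENCODE 29, and the library kit named in the labels is not stated to keep strand, so a part of its reads is uncertain. IGFBP5 and IRS2 share up to 298 and 115 exon bases with antisense transcripts.

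IGFBP3 (ENSG00000146674), the main IGF carrier of serum, stood at 20.0, 22.4 and 19.1 CPM in EPZ5676 high libraries, against 3.15, 2.46 and 1.72 CPM in EPZ5676 low libraries (3.09 ± 0.52, adjusted p = 0.000244). With DMSO it was at 12.5, 13.0 and 13.6 CPM in high libraries, against 0.688, 0.753 and 1.84 CPM in low libraries (3.54 ± 0.58, adjusted p = 0.000143). High and low libraries did not overlap under either treatment. Without the 6 libraries with many reads outside features, which leaves 1 EPZ5676 high library, the EPZ5676 difference was as large (3.17) but not called.

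IGFBP5 (ENSG00000115461), a binding protein that attaches to extracellular matrix, stood at 95.9, 91.2 and 119.8 CPM in EPZ5676 high libraries, against 28.1, 35.6 and 36.3 CPM in EPZ5676 low libraries (1.61 ± 0.25, adjusted p = 0.000157). The DMSO libraries had 111, 102 and 101 CPM in high cells, against 18.9, 26.1 and 21.7 CPM in low libraries (2.24 ± 0.26, adjusted p = 8.41e-06). IGFBP2 (ENSG00000115457) stood at 369, 299.9 and 365 CPM in EPZ5676 high libraries, against 228, 233 and 233 CPM in EPZ5676 low libraries (0.58 ± 0.12, adjusted p = 0.001). In DMSO its values were 379, 531 and 379.7 CPM in high libraries, against 192, 203 and 249 CPM in low libraries (1.00 ± 0.12, adjusted p = 4.64e-06). It was the only tested binding protein whose low libraries held over 100 CPM, and high replicate 2 lay above the rest of DMSO high.

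IGFBP4 (ENSG00000141753), which inhibits IGF action until it is cut by the protease PAPPA, was close to absent. It had 12 counts over all 18 libraries and 0 counts in 12 of them. The highest library, EPZ5676 high replicate 3, had 6 counts (0.287 CPM). A count of 0 allows up to 3 counts in a library, and this covers counting error only, so no difference was detectable at this depth.

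The adaptors went opposite ways. IRS1 (ENSG00000169047) stood at 147, 137 and 140.1 CPM in EPZ5676 high libraries, against 54.5, 53.0 and 55.8 CPM in EPZ5676 low libraries (1.38 ± 0.22, adjusted p = 0.000146). This difference was 1.35 and not called without the 6 libraries with many reads outside features, which leaves 1 EPZ5676 high library. With DMSO, IRS1 had 174, 142 and 159 CPM in high libraries, against 39.6, 46.9 and 37.0 CPM in low libraries (1.94 ± 0.22, adjusted p = 5.94e-06). IRS2 (ENSG00000185950) was lower in high cells, at 224, 203 and 217 CPM in EPZ5676 high libraries, against 296, 266 and 299 CPM in EPZ5676 low libraries (-0.42 ± 0.07, adjusted p = 7.25e-05). With DMSO, IRS2 had 174, 157 and 204 CPM in high libraries, against 338, 315 and 318 CPM in low libraries (-0.86 ± 0.07, adjusted p = 6.87e-09). Set side by side, IRS2 was the more abundant adaptor RNA per kilobase of exon in every group. In DMSO high cells IRS2 had 21.9 ± 2.94 CPM per kilobase and IRS1 15.9 ± 1.64 (SD, n = 3), and in DMSO low cells 39.8 ± 1.51 and 4.13 ± 0.516 CPM per kilobase.

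Among the receptors the differences were small. IGF1R (ENSG00000140443) ranged from 106 to 112 CPM in EPZ5676 high and 86.1 to 93.0 CPM in EPZ5676 low libraries, and from 118 to 131 CPM in DMSO high and 109.9 to 117 CPM in DMSO low libraries. It was 1.21-fold higher in EPZ5676 high than EPZ5676 low cells (0.28 ± 0.06, adjusted p = 0.00029) and 1.11-fold higher in DMSO high than DMSO low cells (0.16 ± 0.06, adjusted p = 0.0214). The DMSO difference was not called when scaled by library size alone (0.09, adjusted p = 0.199), with no filter on low counts (adjusted p = 0.241), in a fit of the 2 groups alone (adjusted p = 0.0625) or without the 6 libraries with many reads outside features (adjusted p = 0.178). Nor was it called without DMSO high replicate 1 (adjusted p = 0.106), DMSO high replicate 3 (0.0549), DMSO low replicate 2 (0.0698) or DMSO low replicate 3 (0.0718). INSR (ENSG00000171105) stood at 33.5, 30.2 and 31.7 CPM in EPZ5676 high libraries, against 23.2, 26.7 and 21.9 CPM in EPZ5676 low libraries (0.41 ± 0.10, adjusted p = 0.00147). With DMSO, INSR had 31.6, 33.5 and 36.6 CPM in high libraries, against 26.1, 26.9 and 26.0 CPM in low libraries (0.36 ± 0.10, adjusted p = 0.00299). Neither INSR call held without the 6 libraries with many reads outside features (0.37 under EPZ5676 and 0.29 under DMSO, adjusted p = 0.13 and 0.0783). IGF2R (ENSG00000197081) was lower in high cells, at 298, 294 and 297 CPM in EPZ5676 high libraries, against 366, 371 and 387 CPM in EPZ5676 low libraries (-0.34 ± 0.05, adjusted p = 6.61e-06). With DMSO, IGF2R had 298, 292 and 319 CPM in high libraries, against 432, 427 and 415 CPM in low libraries (-0.49 ± 0.05, adjusted p = 3.80e-08). The lowest low library of IGF2R lay above the highest high library under both treatments.

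**Figure D2:**
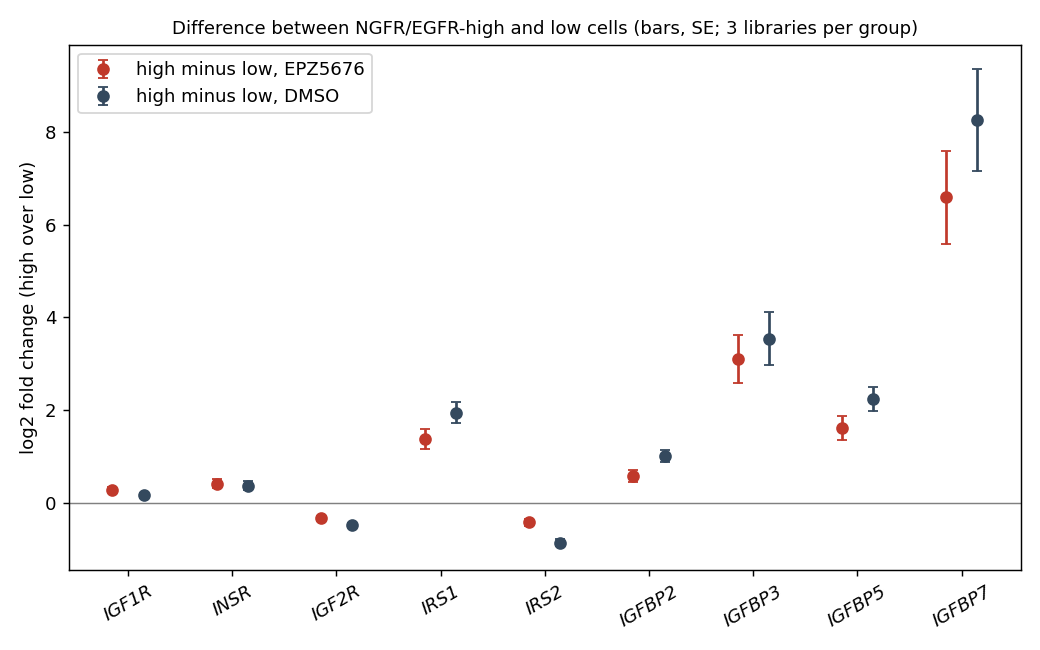
Log2 fold change of high over low cells for the 9 tested genes under EPZ5676 (red) and DMSO (dark), with SE bars from the model over all 18 libraries and 3 libraries per group. IRS2 and IGF2R lie below 0, IGFBP7 lies at 6.59 and 8.27, and 7 of the 9 points under EPZ5676 lie closer to 0 than those under DMSO.

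Per kilobase of exon, IGFBP7 was the most abundant member in high cells, with 109 ± 10.7 CPM per kilobase under EPZ5676 and 164 ± 13.2 under DMSO (SD, n = 3). IGFBP2 came next in high cells, with 72.3 ± 8.14 and 90.1 ± 18.4 CPM per kilobase, and it led in low cells, with 48.5 ± 0.627 under EPZ5676 and 45.02 ± 6.4 under DMSO. In DMSO low cells IGFBP2 and IRS2 (39.8 ± 1.51 CPM per kilobase) differed by less than the SD of IGFBP2. Lengths are those of all exons in GENCODE 29 and may differ from the authors' annotation.

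Promoters of 4 members that differed between the sorts are shown, since 2 of them, IGF2R and IRS2, went with the melanocyte markers, and 2 of them, IGFBP3 and IGFBP5, went against them. The stretches are the 250 bases before the start, 5′ to 3′ on the gene's strand, from RefSeq on GRCh38.p14. IGF2R lies at chr6:159968832-159969081 (plus strand), IRS2 at chr13:109786584-109786833, IGFBP3 at chr7:45921273-45921522 and IGFBP5 at chr2:216695550-216695799 (minus strand). Capitals mark matches on either strand to CACGTG, the palindromic E-box read by MITF and its relatives, CATGTG, the core of the M-box of pigmentation genes, TGANTCA, the AP-1 site, GGAATG, the TEAD site, TGTTTAC, a FOXO site, TATAAA and TATATA.
IGF2R: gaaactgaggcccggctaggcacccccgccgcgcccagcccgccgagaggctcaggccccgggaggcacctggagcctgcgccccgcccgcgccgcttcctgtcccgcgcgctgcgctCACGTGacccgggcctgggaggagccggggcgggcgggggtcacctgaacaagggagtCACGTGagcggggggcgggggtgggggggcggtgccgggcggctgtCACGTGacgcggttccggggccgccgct
IRS2: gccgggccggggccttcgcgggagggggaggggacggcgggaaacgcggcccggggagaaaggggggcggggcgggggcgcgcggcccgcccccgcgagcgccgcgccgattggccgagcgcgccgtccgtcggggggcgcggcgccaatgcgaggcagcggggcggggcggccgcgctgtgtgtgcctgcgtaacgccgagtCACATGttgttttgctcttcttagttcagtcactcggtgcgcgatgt
IGFBP3: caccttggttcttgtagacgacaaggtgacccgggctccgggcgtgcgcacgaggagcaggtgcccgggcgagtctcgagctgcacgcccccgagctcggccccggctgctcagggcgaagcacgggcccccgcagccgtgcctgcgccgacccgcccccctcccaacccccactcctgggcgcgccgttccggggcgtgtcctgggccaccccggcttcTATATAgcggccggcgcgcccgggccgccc
IGFBP5: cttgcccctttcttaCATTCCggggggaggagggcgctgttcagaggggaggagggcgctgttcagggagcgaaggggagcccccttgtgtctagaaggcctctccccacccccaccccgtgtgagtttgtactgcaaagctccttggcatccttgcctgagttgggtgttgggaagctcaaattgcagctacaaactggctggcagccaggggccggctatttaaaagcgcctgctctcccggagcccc
The IGF2R stretch held CACGTG 3 times, at -132, -74 and -28 from the start. Of 35116 such stretches in the RefSeq table, 6.34% held CACGTG at least once and 28 (0.0797%) held it 3 or more times. IRS2 held CATGTG on the reverse strand at -47, as did 9.42% of all stretches. IGFBP3 held TATATA at -30, as did 3.73%, and IGFBP5 held GGAATG on the reverse strand at -235, as did 11.9%. Of the other members, IRS1 held GGAATG at -33 and IGFBP4 TATAAA at -29, as did 10.7%. None of the stretches of the 9 members in the table held TGANTCA or TGTTTAC, which 6.57% and 2.98% of all stretches held. A match describes letters, not a bound site.

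The second comparison asks what DOT1L inhibition changed within each population. IGF1R RNA stood lower with EPZ5676 in every population. In high cells it stood at 111, 106 and 112 CPM with EPZ5676, against 131, 118 and 126 CPM with DMSO. In low cells it stood at 92.5, 93.0 and 86.1 CPM with EPZ5676, against 117, 110.1 and 109.9 CPM with DMSO. In bulk cells it stood at 93.6, 94.2 and 96.8 CPM with EPZ5676, against 124, 112 and 114 CPM with DMSO. No EPZ5676 library overlapped a DMSO library of the same population.

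IGF1R was called in low cells (-0.31 ± 0.06, adjusted p = 0.0066) and bulk cells (-0.30 ± 0.06, adjusted p = 0.0128), and not in high cells (-0.19 ± 0.06, adjusted p = 0.0752). The interaction did not separate the effect in high cells from that in low cells (0.12 ± 0.08, adjusted p = 0.609). It was the only member called in low or bulk cells. Of all tested genes, 0.326% were called lower and 0.712% higher in low cells, and 0.232% lower and 0.497% higher in bulk cells. Without DMSO bulk replicate 1 it passed in all 3 populations, at -0.19 ± 0.05 in high (adjusted p = 0.014), -0.31 ± 0.05 in low (adjusted p = 0.00014) and -0.26 ± 0.06 in bulk cells (adjusted p = 0.00691). The call was lost in low cells without EPZ5676 low replicate 3 (adjusted p = 0.0585), and in bulk cells without EPZ5676 bulk replicate 1 (0.0668) or replicate 2 (0.073). In bulk cells it was also lost in a fit of the 2 groups alone (-0.29, adjusted p = 0.325) and in the smaller set without DMSO bulk replicate 1 and without those 6 libraries (-0.27, adjusted p = 0.236). Without the 6 libraries with many reads on no feature it was not called, but the fold change was as large, at -0.32 in low and -0.30 in bulk cells.

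In high cells 0 of 9 members were called, against 1.95% higher and 1.04% lower of all tested genes, and 4 of the 9 had EPZ5676 and DMSO libraries that did not overlap, against 24.8% of all tested genes. By unadjusted p, 3 members lay under 0.05, as did 16.3% of all tested genes. DESeq2 called 2, IRS2 upward and IGF1R downward, against 2.72% higher and 1.73% lower of all tested genes. By limma-voom IRS2 was called, against 1.73% higher and 1.39% lower. IRS2 stood at 224, 203 and 217 CPM with EPZ5676, against 174, 157 and 204 CPM with DMSO (0.27 ± 0.07, adjusted p = 0.0538), and DMSO high replicate 3, one of the libraries with many reads on no feature, overlapped the EPZ5676 libraries. The adjusted p of IRS2 was 0.0265 without DMSO bulk replicate 1. IRS2 was not called in a fit of the 2 groups alone, where 4.02% of all tested genes were called higher. IGFBP7 stood at 223, 187 and 223 CPM with EPZ5676, against 326, 337 and 288 CPM with DMSO. Its log2 fold change was -0.59 ± 0.70 (adjusted p = 0.757), and -0.59 ± 0.08 without DMSO bulk replicate 1 (adjusted p = 3.88e-05). IGFBP3 stood at 20.0, 22.4 and 19.1 CPM with EPZ5676, against 12.5, 13.0 and 13.6 CPM with DMSO (0.65 ± 0.44, adjusted p = 0.522), and passed without DMSO bulk replicate 1 (0.66 ± 0.16, adjusted p = 0.00891). In that setting 4 of 9 members were called in high cells, 2 higher and 2 lower, against 5.85% and 4.89% of all tested genes. The melanocyte marker sum was also higher in EPZ5676 high than DMSO high libraries and the fibroblast marker sum lower, as given above. The fibroblast list split. COL1A1, the largest part of its sum, had 495, 378 and 427 CPM with EPZ5676, against 822, 1126 and 842 CPM with DMSO. COL1A2, PDGFRA, PDGFRB and FAP were also lower in every EPZ5676 high library, and LUM, DCN and COL3A1 higher. Among its 8 tested genes edgeR called 1 higher and 0 lower. The part of either marker list in these values was not tested.

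In low cells IGFBP7, IGFBP5, IRS1, IGFBP3 and IGFBP2, all more abundant in high cells, had higher mean levels with EPZ5676. IGF1R and INSR, the other members more abundant in high cells, had lower means with EPZ5676. These were 90.5 against 112.2 CPM for IGF1R and 23.95 against 26.33 CPM for INSR. Low libraries held few reads of IGFBP7 (34, 51 and 45 counts with EPZ5676, and 15, 16 and 33 with DMSO). The same was so for IGFBP3 (45, 60 and 36 counts, and 14, 15 and 41). IGFBP7 had 2.38, 2.09 and 2.14 CPM with EPZ5676, against 0.737, 0.804 and 1.48 CPM with DMSO (1.09 ± 1.46, adjusted p = 0.84). IGFBP5 had 28.1, 35.6 and 36.3 CPM with EPZ5676, against 18.9, 26.1 and 21.7 CPM with DMSO (0.59 ± 0.26, adjusted p = 0.393). IRS1 had 54.5, 53.0 and 55.8 CPM with EPZ5676, against 39.6, 46.9 and 37.0 CPM with DMSO (0.40 ± 0.22, adjusted p = 0.502). The libraries of these 3 genes did not overlap, as for 6 of 9 members, against 23.1% of all tested genes. IGFBP3 stood at 3.15, 2.46 and 1.72 CPM with EPZ5676, against 0.688, 0.753 and 1.84 CPM with DMSO, with 1 DMSO library inside the EPZ5676 range. IGFBP2 libraries overlapped as well (0.11 ± 0.12, adjusted p = 0.799).

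None of the 5 with higher means was called over all 18 libraries, but 4 were without DMSO bulk replicate 1. They were IRS1 at 0.40 ± 0.07 (adjusted p = 0.000876), IGFBP7 at 1.09 ± 0.21 (adjusted p = 0.00298), IGFBP3 at 1.09 ± 0.28 (adjusted p = 0.0201) and IGFBP5 at 0.59 ± 0.13 (adjusted p = 0.0216). IGF2R was lower in that setting, at -0.18 ± 0.04 (adjusted p = 0.00776). It had 366, 371 and 387 CPM with EPZ5676, against 432, 427 and 415 CPM with DMSO. So 4 of 9 members were called higher and 2 lower in low cells, against 3.01% and 2.14% of all tested genes. NGFR RNA was higher in EPZ5676 low than DMSO low libraries on average, with overlap, as given above. EGFR RNA was higher in every EPZ5676 low library than in every DMSO low library. Whether more high cells entered the low sort was not tested.

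**Figure D3:**
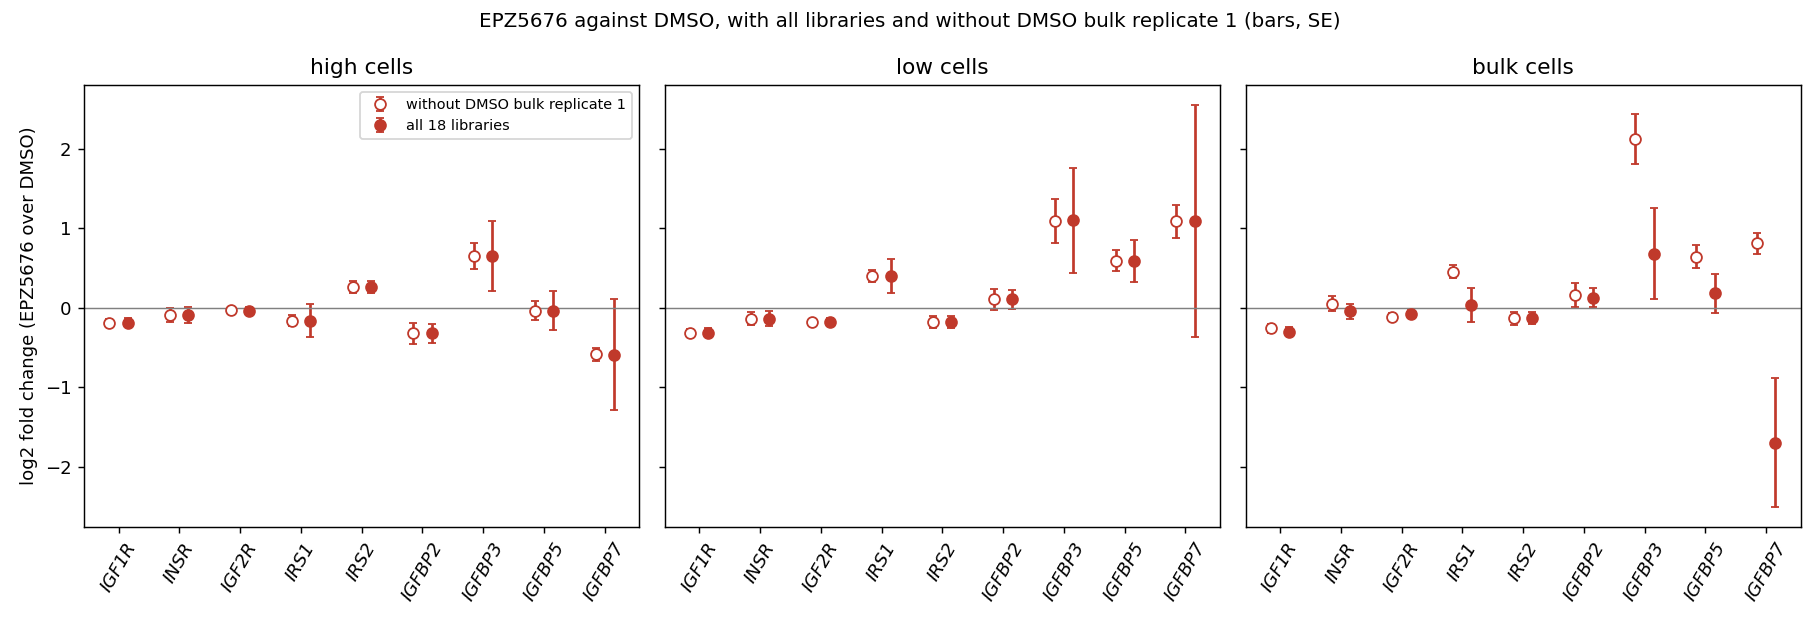
Log2 fold change of EPZ5676 over DMSO in high, low and bulk cells for the 9 tested genes, with SE bars. Open points leave out DMSO bulk replicate 1 and filled points use all 18 libraries. In high and low cells the points hardly move while the bars shrink, and in bulk cells IGFBP7 lies at 0.81 without that library and at -1.69 with it.

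In bulk cells DMSO bulk replicate 1 set the values themselves, and 3 of 9 members had libraries that did not overlap, against 15.9% of all tested genes. IGFBP7 stood at 12.0, 10.9 and 11.8 CPM in EPZ5676 bulk libraries, against 100.2, 6.69 and 6.38 CPM in DMSO bulk libraries, and its fold change was -1.69 ± 0.81 with that library (adjusted p = 0.429) and 0.81 ± 0.13 without it (adjusted p = 0.00087). IGFBP3 stood at 4.85, 3.17 and 4.04 CPM with EPZ5676, against 5.97, 0.79 and 0.985 CPM with DMSO, and its fold change was 0.68 ± 0.57 with and 2.13 ± 0.32 without DMSO bulk replicate 1 (adjusted p = 0.684 and 0.000129). IGFBP5 stood at 49.4, 56.2 and 55.9 CPM with EPZ5676, against 74.1, 34.7 and 34.3 CPM with DMSO (0.18 ± 0.25 with that library and 0.64 ± 0.15 without it, adjusted p = 0.838 and 0.0317). IRS1 stood at 62.2, 61.0 and 63.1 CPM with EPZ5676, against 91.4, 42.7 and 47.5 CPM with DMSO (0.04 ± 0.22 with that library and 0.46 ± 0.08 without it, adjusted p = 0.969 and 0.00122). For IGFBP7, IGFBP3, IGFBP5 and IRS1 the 2 other DMSO libraries lay below every EPZ5676 library. Without DMSO bulk replicate 1, 4 of 9 members were called higher and 1 lower in bulk cells, against 1.98% and 0.953% of all tested genes. NGFR was 29.9 to 35.7 CPM in EPZ5676 bulk and 9.24 and 12.6 CPM in those 2 DMSO bulk libraries, so more high cells and more RNA per cell cannot be told apart. Melanocyte markers summed to 12680 to 12970 CPM in EPZ5676 bulk and 5006 to 10530 CPM in DMSO bulk libraries. PMEL, the largest part of that sum, had 9340, 9415 and 9169 CPM in EPZ5676 bulk and 2968, 7040 and 7261 CPM in DMSO bulk libraries. MLANA had 363, 399 and 386 CPM in EPZ5676 bulk and 277, 508 and 549 CPM in DMSO bulk libraries. Of the 8 melanocyte markers, 3 (PMEL, DCT and S100B) had libraries that did not overlap, all higher with EPZ5676. Fibroblast markers summed to 121 to 127 CPM in EPZ5676 bulk and 93.2 to 465 CPM in DMSO bulk libraries. LUM alone had 84.0, 85.1 and 85.7 CPM in EPZ5676 bulk and 46.7, 68.9 and 62.2 CPM in DMSO bulk libraries. The part of either marker list in these values was not tested.

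The interaction asks whether EPZ5676 changed high cells differently from low cells. Over all 18 libraries 0 of 9 members were called, against 0.204% higher and 0.116% lower of all tested genes, with 3 members at an unadjusted p under 0.05, as were 11.1% of all tested genes. DESeq2 called 1 higher, against 0.613% of all tested genes. IRS2 came closest, at 0.44 ± 0.11 (adjusted p = 0.0774). Without DMSO bulk replicate 1, 1 of 9 members was called higher and 2 lower, against 3.09% and 2.61% of all tested genes. IGFBP7 (-1.68 ± 0.22, adjusted p = 6.73e-05) and IRS1 (-0.56 ± 0.10, adjusted p = 0.000689) had a more negative effect in high than in low cells, and IRS2 (0.44 ± 0.11, adjusted p = 0.0166) a more positive one. For these 3 genes the gap between high and low cells was smaller with EPZ5676 than with DMSO. IGFBP2 (-0.42 ± 0.19, adjusted p = 0.274), IGFBP5 (-0.63 ± 0.18, adjusted p = 0.0651) and IGFBP3 (-0.44 ± 0.33, adjusted p = 0.555) were not called. INSR gave the smallest interaction, 0.04 ± 0.14 over all 18 libraries, with a 95% interval from -0.23 to 0.31.

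Across the 18 libraries the genes most like each member were found by Pearson correlation of log2 CPM. The candidates were 10380 protein-coding genes with a mean of at least 5 CPM. The genes are given as a description, since the libraries share the sort and the treatment. A gene picked this way tends to share the changes of its member, so p-values given for it carry no separate weight. IGFBP7 was most like SNTB1 (r = 0.998) and MMP2 (0.997), a gelatinase. IRS1 was most like PRSS23 and SEC24D (0.992 and 0.991), IGFBP5 like CCN3 and PRSS35 (both 0.981), and IGFBP3 like TOB1 and KRCC1 (0.976 and 0.971). IGF2R was most like IL1RAP (0.979) and NAGPA (0.979), whose enzyme uncovers the mannose 6-phosphate tag that IGF2R binds. NAGPA stood 0.36 ± 0.07 lower in high than low cells under EPZ5676 (log2 fold change -0.36, adjusted p = 0.000123) and 0.46 lower under DMSO (-0.46 ± 0.07, adjusted p = 4.47e-06). IRS2 was most like SLC19A1 and KAT2B (0.979 and 0.975), IGFBP2 like ALDH7A1 and IP6K2 (0.956 and 0.954), and INSR like B3GNT5 and CDS2 (0.941 and 0.916).

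The genes most like IGF1R, the receptor tyrosine kinase for IGFs, were SCRN1 (0.956) and RNF182 (0.94). Both fell with EPZ5676 in low and bulk cells, with and without DMSO bulk replicate 1. They were picked for likeness to IGF1R over these same libraries, so their falls follow in part from that choice. SCRN1 changed by -0.45 ± 0.06 in low and -0.53 ± 0.06 in bulk cells (adjusted p = 0.000675 and 6.6e-05), and RNF182 by -0.71 ± 0.08 and -0.42 ± 0.08 (adjusted p = 4.73e-05 and 0.0128). In high cells RNF182 fell too (-0.34 ± 0.08, adjusted p = 0.0187), and SCRN1 was called only without DMSO bulk replicate 1 (-0.21 ± 0.06 over all 18 libraries, adjusted p = 0.0599, and 0.00589 without it). Between members, IGF1R correlated with IGFBP7 at 0.531 and with IGF2R at -0.297, whereas IRS1 correlated with IGFBP7 at 0.956 and with IGF2R at -0.939.

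The rest of the pathway was read from a list of 56 genes, of which 47 were tested. The ligands were almost absent. IGF1 had 11 counts and IGF2 28 counts over all 18 libraries, and INS had 0. IGF2 shares up to 5144 exon bases with overlapping genes in GENCODE 29, INS-IGF2 among them, and PIK3R2, at 33 counts, shares 3947, so reads common to such pairs may have been set aside as ambiguous and both levels are uncertain. Between high and low cells 20 of the 47 tested genes were higher and 16 lower under EPZ5676, and 20 higher and 17 lower under DMSO. The shares over all tested genes were 25.8% higher and 23.1% lower under EPZ5676, and 29.6% and 26.7% under DMSO. Medians of the list were 0.04 and -0.05, against 0.02 and 0.03 over all genes.

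**Figure D4:**
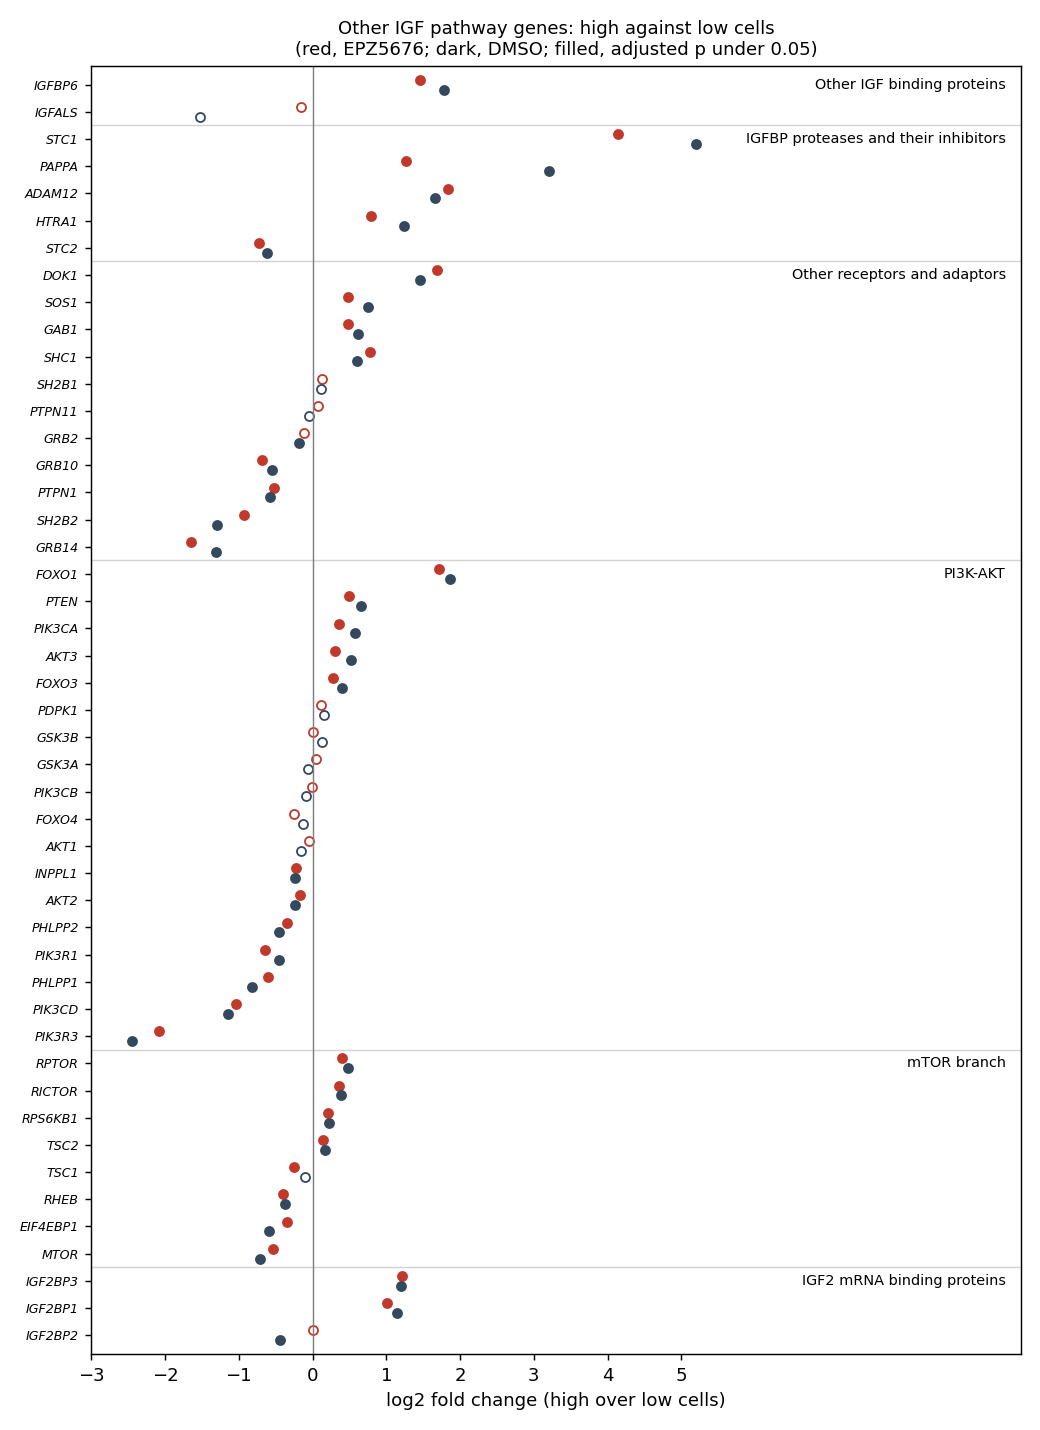
Log2 fold change of high over low cells for the 47 tested genes of the IGF pathway list, by role, under EPZ5676 (red) and DMSO (dark). Filled points have an adjusted p under 0.05. STC1 lies farthest to the right, at 4.14 and 5.20, and PIK3R3 farthest to the left, at -2.08 and -2.45.

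Of 5 tested genes that cut binding proteins or inhibit that cutting, 4 were higher and 1 lower in high cells under both treatments, where 25.8% and 23.1% of all tested genes were higher and lower under EPZ5676 and 29.6% and 26.7% under DMSO. STC1, a secreted inhibitor of the IGFBP protease PAPPA, stood at 556, 522 and 658 CPM in EPZ5676 high libraries, against 28.5, 36.2 and 33.8 CPM in EPZ5676 low libraries (4.14 ± 0.64, adjusted p = 0.000137). With DMSO, STC1 had 1113, 892 and 899.7 CPM in high libraries, against 28.2, 26.5 and 24.2 CPM in low libraries (5.20 ± 0.67, adjusted p = 2.13e-05). PAPPA itself was called higher but low, at 0.756 ± 0.0839 CPM in EPZ5676 high and 1.08 ± 0.177 CPM in DMSO high cells (SD, n = 3). The protease HTRA1 was higher by 0.80 ± 0.14 under EPZ5676 and 1.24 ± 0.14 under DMSO, and STC2 was at -0.73 ± 0.23 and -0.61 ± 0.23. IGFBP6, which prefers IGF2, was higher by 1.45 ± 0.19 and 1.78 ± 0.19.

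Downstream of the receptors genes went both ways. Of 18 tested PI3K-AKT genes, 5 were higher and 7 lower in high cells under each treatment. Over all tested genes 25.8% were higher and 23.1% lower under EPZ5676, and 29.6% and 26.7% under DMSO. The counts in this paragraph are a description and were not tested against those shares. PIK3R3, a regulatory subunit of phosphoinositide 3-kinase, stood at 65.9 ± 3.94 CPM in EPZ5676 high and 278 ± 9.75 CPM in EPZ5676 low cells, and at 55.0 ± 2.94 CPM in DMSO high and 301 ± 4.92 CPM in DMSO low cells (-2.08 ± 0.16 and -2.45 ± 0.16, adjusted p = 2.31e-07 and 2.68e-08). PHLPP1, a phosphatase that acts on AKT, was at -0.61 ± 0.06 and -0.83 ± 0.06. FOXO1, a transcription factor that AKT holds in the cytoplasm, was higher by 1.72 ± 0.29 and 1.86 ± 0.29. Of 11 tested adaptors and receptor regulators, 4 were higher under each treatment, and 4 lower under EPZ5676 and 5 under DMSO: SHC1 was at 0.78 ± 0.07 and 0.60 ± 0.07, and GRB10, which inhibits these receptors, at -0.68 ± 0.06 and -0.55 ± 0.06. Of 8 mTOR genes, 4 were higher under each treatment, and 4 lower under EPZ5676 and 3 under DMSO, with MTOR at -0.54 ± 0.07 and -0.71 ± 0.07. The IGF2 mRNA binding protein IGF2BP1 was higher by 1.01 ± 0.11 and 1.15 ± 0.11.

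Between EPZ5676 and DMSO, edgeR called 0 of the 47 in high cells, 2 lower in low cells and 0 in bulk cells. Over all tested genes it called 1.95% higher and 1.04% lower in high cells. The shares were 0.712% and 0.326% in low cells, and 0.497% and 0.232% in bulk cells. An unadjusted p under 0.05 was reached by 10, 7 and 7 of the 47, and by 16.3%, 12% and 12.3% of all tested genes. DESeq2 called 2 in high cells, both lower, against 1.73% of all tested genes. The 2 in low cells were IGF2BP2, at 100.4 ± 1.6 CPM with EPZ5676 and 130.3 ± 11.8 CPM with DMSO (SD, n = 3; -0.38 ± 0.07, adjusted p = 0.0123), and PHLPP1, at 58.2 ± 3.55 CPM with EPZ5676 and 70.3 ± 0.332 CPM with DMSO (-0.27 ± 0.06, adjusted p = 0.0275). Both stayed called without DMSO bulk replicate 1 (adjusted p = 0.000385 and 0.00305). Leaving out EPZ5676 low replicate 1, 2 or 3 or DMSO low replicate 2 left 0 of the list called lower in low cells. Leaving out DMSO low replicate 1 or 3 left 1. On leaving out 1 library, 0.0593% to 2.14% of all tested genes were called lower there. Without DMSO bulk replicate 1, 10 of the 47 were called in high cells, 2 higher and 8 lower, against 5.85% and 4.89% of all tested genes, with STC1 at -0.74 ± 0.15 (adjusted p = 0.00752). In low cells 2 were then higher (HTRA1 and GRB14) and 3 lower (IGF2BP2, PHLPP1 and IGF2BP3), against 3.01% and 2.14%, and in bulk cells 2 higher (HTRA1 and FOXO1) and 0 lower, against 1.98% and 0.953%. Genes named only from this setting were chosen after their values were seen.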

How the data were processed

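RNA was read from 18 polyA libraries of WM989 cells. The authors deposited raw counts per Ensembl gene, made with STAR and HTSeq against hg19 as named in the submitters' processing notes; their versions, strand setting and annotation are not given in the sources used here. The table held 63677 genes and 5 summary lines, which were left out of tests. Ambiguous reads made up 6.07% to 7.71% of a library.

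In R 4.3.3, edgeR 4.0.16 filtered genes by group with filterByExpr (18121 left), took TMM factors and fitted the 6 group means over all 18 libraries by robust quasi-likelihood, with Benjamini-Hochberg adjustment per comparison and a threshold of 0.05. SEs come from the F statistic. Likeness used log2 CPM with a prior count of 2. Alternatives were other scalings (RLE, library size), other filters (none, or 5 CPM on average), DESeq2 1.42.0, limma-voom 3.58.1, non-robust estimation, fits restricted to the compared groups, a replicate block, each library left out, the libraries with over 16% of reads outside features left out, and that share as a covariate. The 2 combinations of these with DMSO bulk replicate 1 left out were added after seeing the data. The fits were run on simulated data with known changes, in which no library stood apart as DMSO bulk replicate 1 did. The outcome is not given here. The 10 members, IGF1, IGF2 and, per comparison, up to 4 called pathway genes with the smallest p were named by rule; STC1, PAPPA, HTRA1, STC2, IGFBP6, FOXO1, INS and PIK3R2 were added after their values were seen. Members, lists and tests were chosen with earlier results of these data known. Promoters came from RefSeq. Figures used Python 3.11.15 and matplotlib 3.10.9.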

Additional observations from a re-analysis of the deposited data

Results flagged for a closer look

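The EPZ5676 libraries of IGFBP7 and IGFBP2 stood on opposite sides of the DMSO libraries in different populations. IGFBP7 was lower in all EPZ5676 high libraries than in all DMSO high libraries and higher in all EPZ5676 low libraries than in all DMSO low libraries, and the effects differed by -1.68 on the log2 scale (edgeR interaction, adjusted p = 0.754, and 6.73e-05 without DMSO bulk replicate 1). IGFBP2 was lower with EPZ5676 in high cells and higher in bulk cells, a difference of -0.45 between the log2 fold changes that was not tested. Neither IGFBP2 value was called (adjusted p = 0.195 in high and 0.724 in bulk cells).

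PIK3R3 was higher with EPZ5676 in high cells and lower in low cells, and the effects differed by 0.38 (edgeR interaction, adjusted p = 0.566, and 0.000518 without DMSO bulk replicate 1). SHC1 did likewise, by 0.18 (adjusted p = 0.513, and 0.135 without that library).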

How the results depend on the processing

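IGFBP4, IGF1 and IGF2 had too few counts for any test. Over single genes, 626 values kept direction and side of the threshold under the alternatives other than leaving out 1 library, 49 became called, 14 lost their call and 7 reversed. On leaving out 1 library the counts were 937, 17, 7 and 11. The causes were not tested.

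In high cells EPZ5676 raised 1 member under library size scaling, no filter, the 5 CPM filter, DESeq2, limma-voom, the restricted fit, the replicate block, the covariate and the smaller set without DMSO bulk replicate 1 and libraries over 16%, and 2 without DMSO bulk replicate 1 with the covariate. The raised member was IGFBP3 under the restricted fit and IRS2 under the other settings with 1 raised. EPZ5676 lowered 1 member, IGF1R under DESeq2 and IGFBP7 under the restricted fit. In the smaller set, which leaves 1 EPZ5676 high library, IGFBP7 was at -0.57. EPZ5676 lowered 2 members without DMSO bulk replicate 1 with the covariate. Of the pathway list it raised 1, 2 and 1 genes under the restricted fit, that covariate fit and the smaller set, and lowered 2 under the 5 CPM filter and DESeq2, 6 under the restricted fit and 8 under that covariate fit. In low cells it raised 4, 4 and 2 members under those 3 settings, and lowered 2 under DESeq2, 3 under the restricted fit, 0 without the libraries over 16% and 3 under that covariate fit. Pathway genes raised there were 1 with no filter, 3, 2 and 1 under those 3 settings, and 0 were lowered without the libraries over 16%. In bulk cells it raised 4 members under that covariate fit and 3 in the smaller set, and lowered 0 under the restricted fit, without the libraries over 16% and in the smaller set. Pathway genes raised were 2 under that covariate fit, and 2 were lowered with no filter. The restricted bulk fit called 2 genes in all. Without the libraries over 16%, high cells had 4 members and 11 pathway genes higher than low cells under EPZ5676. The interaction gave 1 member higher with no filter, DESeq2, the restricted fit, the replicate block, the covariate and both combinations, and 2, 3 and 1 lower under the restricted fit, that covariate fit and the smaller set. Its pathway genes were 1 higher with no filter and DESeq2, 2, 2 and 1 higher under those 3 settings, and 2 lower under the restricted fit and that covariate fit. The settings also moved the share of all tested genes called in either direction. In high cells it was 3% over all 18 libraries, 3.17% under library size scaling, 2.16% with no filter, 5.39% with the 5 CPM filter, 4.45% under DESeq2, 3.12% under limma-voom, 8.5% under the restricted fit, 2.9% with the replicate block, 2.51% with the covariate, 10.7% under that covariate fit and 2.69% in the smaller set. In low cells it was 1.04% over all 18 libraries, 0.848% with no filter, 1.75% under DESeq2, 6.27% under the restricted fit, 0.036% without the libraries over 16%, 4.81% under that covariate fit and 2.34% in the smaller set. In bulk cells it was 0.728% over all 18 libraries, 1% with no filter, 0.0124% under the restricted fit, 0% without the libraries over 16%, 2.23% under that covariate fit and 0.719% in the smaller set. For the interaction it was 0.32% over all 18 libraries, 0.692% with no filter, 0.977% under DESeq2, 4.84% under the restricted fit, 0.27% with the replicate block, 0.248% with the covariate, 5.45% under that covariate fit and 1.47% in the smaller set.

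Leaving out 1 library at a time, members called higher with EPZ5676 ranged from 0 to 2 in high, 0 to 4 in low and 0 to 4 in bulk cells, and those called lower from 0 to 2, 0 to 2 and 0 to 1. Pathway genes called higher ranged from 0 to 2 in each population, and those called lower from 0 to 8 in high, 0 to 3 in low and 0 to 1 in bulk cells. Between high and low cells the members called higher ranged from 7 to 7 under EPZ5676 and 6 to 7 under DMSO, with 2 lower throughout; pathway genes ranged from 18 to 20 higher and 16 to 17 lower under EPZ5676 and from 19 to 21 and 16 to 19 under DMSO. The interaction ranged from 0 to 1 members higher and 0 to 2 lower, and 0 to 2 pathway genes each way. Over all tested genes the share called ranged from 1.07% to 10.7% in high, 0.324% to 5.15% in low and 0.21% to 2.93% in bulk cells, from 43% to 50.6% between high and low cells under EPZ5676 and 51.1% to 57.5% under DMSO, and from 0.0747% to 5.71% for the interaction.

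Values that reversed without the libraries over 16%, and in the smaller set, were IGFBP5 (0.18 and 0.18) and IGF2R (0.0184 and 0.0141) in high cells. Without DMSO bulk replicate 1 and with the covariate, IGFBP7 was at 0.88 and INSR at 0.0174 in bulk cells, and IGFBP7 was at 0.73 in the smaller set. Leaving out 1 library, the range was -0.16 to 0.042 for IGFBP5 and -0.0586 to 0.0081 for IGF2R in high cells, and -0.0078 to 0.64 for IGFBP5, -2.21 to 0.81 for IGFBP7, -0.16 to 0.46 for IRS1 and -0.15 to 0.0549 for INSR in bulk cells. The INSR interaction ranged from -0.0185 to 0.13. DESeq2 gave no adjusted p for IGFBP7.

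Of 45 pairs of libraries with the same replicate number, 8 had deviations correlated above 0.1 (range -0.34 to 0.30). Of 18 libraries, 5 were closest to their own number. No consistent pairing by number was seen. The check cannot exclude pairing, since the deviations also varied with the share of reads outside features. EPZ5676 bulk replicate 2 (13.8%) correlated at 0.25 with EPZ5676 low replicate 2 (14.4%) and at -0.27 with EPZ5676 high replicate 2 (21.2%). With the replicate block 74 of 78 results were unchanged, and IRS2 was called in high cells (adjusted p = 0.0247) and in the interaction (adjusted p = 0.0369).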
